A study of Camelus dromedarius with 4 samples.

Results

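The EGF family of ligands and its ERBB receptors was examined in RNA-seq of the supraoptic nucleus of the dromedary camel (Camelus dromedarius). The genes were chosen by name, 6 ligands (HBEGF, TGFA, EGF, BTC, EREG and NRG1) and 4 receptors (EGFR, ERBB2, ERBB3 and ERBB4), and were read from the season means that the authors deposited for 16049 named genes. Of these 10 genes, 9 were found there, and TGFA was not analysed here. The family was picked because the seasonal difference of HBEGF was already known, so the seasonal values of its members are a description and carry no test. Winter was represented by 2 libraries and summer by 2, all from hydrated, healthy, age-matched adult males of the Tergui breed killed for meat. Winter animals came from El Oued and summer animals from Ouargla, so season, place and date cannot be told apart. The question of the comparison is how gene expression in this nucleus, where vasopressin and oxytocin are made, differs between the seasons. As a limited check of the dissection, OXT, which encodes oxytocin, had a mean of 621 normalized reads in winter and 592 in summer. AVP, which encodes vasopressin, was not analysed here. OXT alone does not show that the dissections matched. Markers of neurones and of oligodendrocytes, given below, had median log2 ratios of winter over summer of 0.76 and 0.36.

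Ligands of this family share an EGF-like fold held by paired cysteines. Most are made as transmembrane precursors, and metalloproteases of the ADAM family cut them at the cell surface so that they can reach receptors on the same or on neighbouring cells. HBEGF, TGFA, EGF, BTC and EREG bind EGFR, some of them also ERBB4, whereas the neuregulin NRG1 binds ERBB3 and ERBB4. ERBB2 has no ligand of its own and acts as the preferred partner of the others, and ERBB3 has little kinase activity and signals through its partners. Receptor pairs signal through RAS and ERK, PI3 kinase and STAT proteins. In the brain, neuregulin signalling is known for its roles in myelinating glia and in interneurones, and EGFR signalling for its roles in astrocytes and neural progenitors.

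The deposited season means are averages over libraries of reads divided by a size factor (a scaling number for the depth of a library), here called normalized reads. The means are sums of whole reads, and solving for them gave the reads of each library for 9884 genes. The libraries are called winter A and B (size factors 1.33 and 0.946) and summer A and B (0.922 and 0.877), since their replicate numbers are not given by the means. A single solution in both seasons was found for HBEGF, EGF, BTC, EREG and ERBB2. In NRG1, EGFR and ERBB4 the summer reads have a single solution and the winter reads have 2 or 3, and in ERBB3 both seasons have several. The count files of the same libraries hold 4379162 to 6902037 reads on gene models without gene names. Summer replicate 2 had 40178 gene models detected from 5520242 reads, and summer replicate 1 had 52456 from 4406533 reads. Winter replicates 2 and 3 had 50154 and 49320. Which of summer A and B is replicate 2 was not determined, and the part of detection in the library differences below was not tested. The libraries of summer stood further apart than those of winter. Among the 7643 genes with a single solution that averaged 10 or more normalized reads in either season, summer A and B were more than 2-fold apart in 34.4%, and winter A and B in 16.8%. Summer B was the higher of the summer libraries by more than 2-fold in 27.7%, so low values in summer A are common among these genes. Normalized reads are not divided by the length of a gene, so no order of expression between genes is read from them, and a gene is called the one with the most reads of its list because the rule for naming genes used this.

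HBEGF was the member of the family with the largest ratio between seasons, and 3 of the 4 receptors (EGFR, ERBB3 and ERBB4) had higher means in winter, with log2 ratios of winter over summer from 0.14 to 0.36. The winter mean was below the summer mean in 6 of the 9 genes, among them all 5 ligands, while 53.8% were lower in winter among the 13808 named genes that averaged 10 or more normalized reads in a season (called expressed from here on). The direction of EREG turned with each of the other 3 scalings tried. Means more than 2-fold apart were found in 1 of the 9 genes, HBEGF, and in 7.26% of expressed genes, in 4.53% with summer higher and in 2.72% with winter higher. Of the 9 genes, 8 were expressed by this measure (EGF was not), and their median log2 ratio of winter over summer was -0.24, against -0.037 over all expressed genes. Nothing is read from these shares, because the choice of the family used this contrast.

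HBEGF encodes heparin-binding EGF-like growth factor, which is also the cell surface receptor of diphtheria toxin. HBEGF had 71 reads in winter A and 41 in winter B, and 137 in summer A and 85 in summer B. After scaling these were 53.6 and 43.4 normalized reads in winter and 149 and 96.9 in summer. Both summer libraries lay above both winter libraries, and the lower summer value was 1.81 times the higher winter value. The means were 48.5 ± 7.22 (SD, n = 2) in winter and 123 ± 36.5 (SD, n = 2) in summer, a summer mean 2.53 times that of winter, or a log2 ratio of winter over summer of -1.34. Leaving out 1 library at a time moved the log2 ratio between -1.62 and -0.999, and it was nearest to 0 without summer A. Seasons did not overlap in 30.5% of the expressed genes with a single solution, with both summer libraries higher in 17.2% and both winter libraries higher in 13.3%. In 3.65% the summer libraries were both higher and the means more than 2-fold apart. Summer A held 1.53 times the normalized reads of summer B (exact binomial 95% interval 1.16 to 2.03, which covers counting error only), whereas the interval of winter A over winter B, 0.830 to 1.86, included 1. HBEGF was thus the only member with a single summer solution that was higher in summer A than in summer B.

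**Figure D1:**
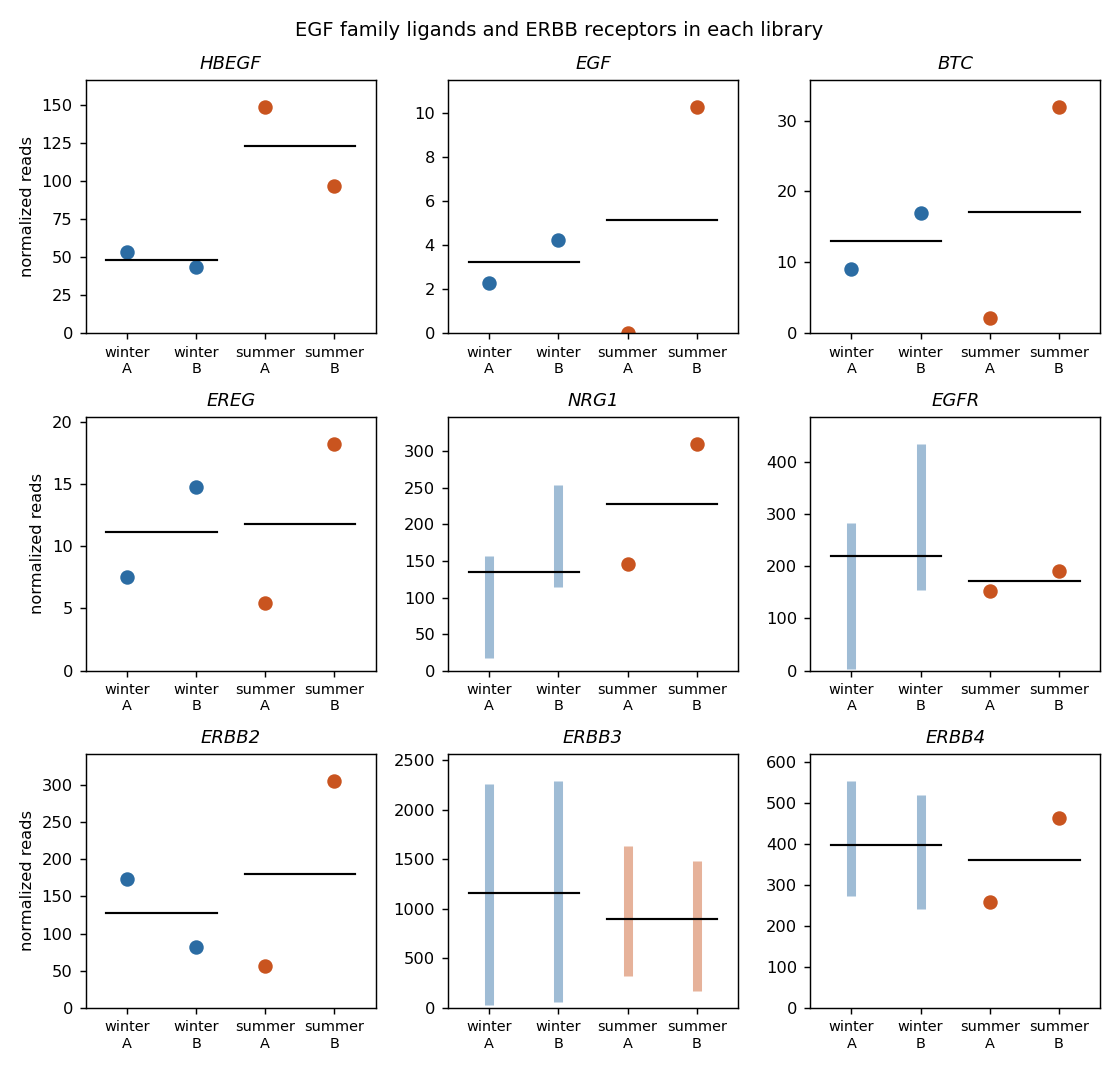
Normalized reads (y axis, linear, from 0) of each family member in the 4 libraries (x axis), winter in blue and summer in orange, with the deposited season mean as a black line. Points are single solutions and pale bars run from the lowest to the highest value over all solutions, in which a high value of 1 library goes with a low value of the other. HBEGF is the gene whose summer points, 149 and 96.9, both lie above its winter points, 53.6 and 43.4.

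Markers of cell types that the dissection could hold were read in the same libraries, and in bulk tissue fewer cells of a type and less RNA per cell cannot be told apart. Of 10 microglial markers 8 were listed, and 5 of these had a lower winter mean, at a median log2 ratio of -0.16, and they ran from -0.61 in C1QB to 0.92 in CSF1R. The 3 microglial markers with single solutions (AIF1, CSF1R and TMEM119) summed to 289 and 298 normalized reads in winter and to 281 and 184 in summer, and none was at 0. Summed over the markers with single solutions, pericytes, meninges and fibroblasts and endothelium were like HBEGF higher in both summer libraries. Within these lists this held for RGS5, ABCC9, COL1A2, LUM and PECAM1, and not for the other markers with single solutions. The 3 pericyte markers with single solutions (RGS5, ABCC9 and KCNJ8) summed to 156 and 180 in winter and to 268 and 209 in summer, a sum carried by ABCC9. KCNJ8 had 0 reads in summer A and a lower summer mean, and PDGFRB, the other pericyte marker, had means of 217 in winter and 156 in summer. The 4 markers of meninges and fibroblasts (COL1A1, COL1A2, DCN and LUM) summed to 173 and 160 in winter and to 235 and 211 in summer. COL1A1 had the higher mean in winter (46.3 against 40.5), and the seasons overlapped in COL1A1 and DCN. Of these markers 3 were tested, and COL1A2, a chain of type I collagen, passed the rule of the study (more than 2-fold with an unadjusted p under 0.05). Its log2 fold change was -1.02 (SE 0.39, edgeR's quasi-likelihood test, unadjusted p = 0.0321, adjusted p = 0.982). Tested markers of the other cell types did not pass. Over all 7643 genes tested 1.67% passed, 0.824% with summer higher, so nothing is read from this call. Of 8 endothelial markers 5 had a lower winter mean, at a median log2 ratio of -0.11. The 4 with single solutions (PECAM1, CLDN5, CDH5 and ESAM) summed to 223 and 192 in winter and to 250 and 225 in summer. The margin was narrow, at 223 in winter A against 225 in summer B. Those sums leave out VWF and TIE1, with higher winter means (444 against 367 and 460 against 287). They also leave out TEK and FLT1, with lower winter means (597 against 736 and 225 against 244). Of the 3 blood markers with single solutions the globin genes HBB and HBA were higher in both summer libraries and PTPRC was not. The part of these cells in the HBEGF difference was not tested.

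The other ligands of EGFR gave few reads and followed a different order of libraries. EGF gave 3 reads in winter A, 4 in winter B, none in summer A and 9 in summer B. BTC, which encodes betacellulin, gave 12 reads in winter A, 16 in winter B, 2 in summer A and 28 in summer B, or 9.06 and 16.9 normalized reads against 2.17 and 31.9. EREG, which encodes epiregulin, gave 10 reads in winter A, 14 in winter B, 5 in summer A and 16 in summer B, or 7.55 and 14.8 normalized reads against 5.42 and 18.2. In each of these genes summer B was the highest library and summer A the lowest, so that the winter values lay between the summer values. The log2 ratios of the means were -0.66 for EGF, -0.39 for BTC and -0.08 for EREG. Without summer B the ratio turned to 2.58 for BTC and to 1.04 for EREG, and EGF was left with 0 reads in summer.

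The ligand genes AREG and EPGN, which were not among the chosen members, showed the same order. AREG, which encodes amphiregulin, gave 4 and 7 reads in the winter libraries A and B, against 0 and 16 in summer A and B. EPGN, which encodes epigen, gave 15 and 17 reads in the winter libraries A and B, against 9 and 43 in summer A and B. Thus from the highest to the lowest the libraries were summer B, winter B, winter A and summer A in EGF, BTC, EREG, AREG and EPGN. The same order was found in 12.1% of expressed genes with a single solution, and in 13.1% of all genes with a single solution. It was noticed after the values were seen. In the RefSeq annotation of another dromedary assembly (mCamDro1.pat) EPGN, EREG, AREG and BTC are next to each other with 0 other protein-coding genes between them, and EGF is on the same chromosome, 1, with 144 protein-coding genes between it and EPGN. HBEGF and NRG2 are also near each other, on chromosome 3 with 4 such genes between them, and their log2 ratios were -1.34 and 0.0078. The part of position in the order of libraries was not tested. Summer B held 14.7 times the normalized reads of summer A in BTC (exact binomial 95% interval 3.71 to 127), 3.36 times in EREG (1.18 to 11.7) and 5.02 times in EPGN (2.41 to 11.7). In EGF and AREG, where summer A had 0 reads, the lower limit of the same interval was 2.07 and 4.05. These intervals compare the 2 libraries of summer and cover counting error only.

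**Figure D2:**
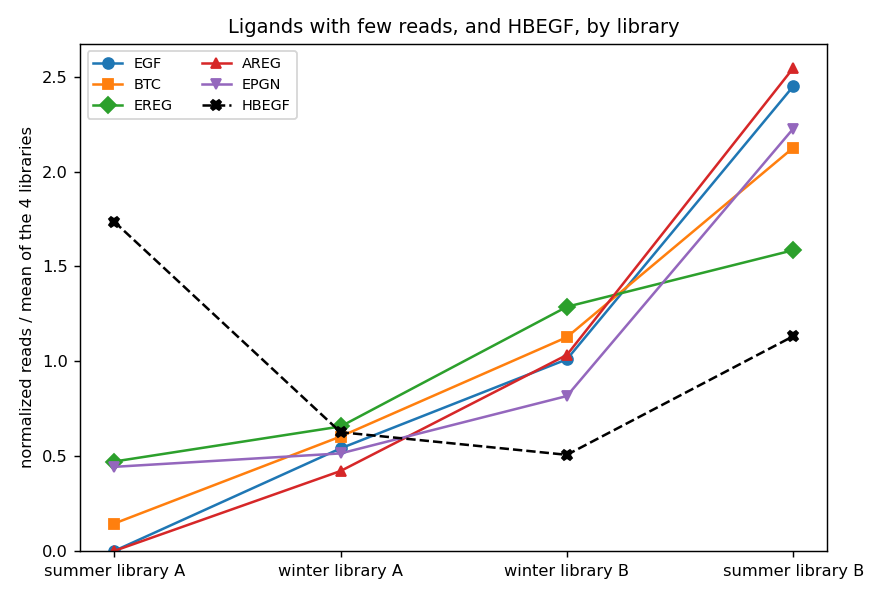
Normalized reads of 5 ligands with few reads and of HBEGF (dashed) in each library, divided by the mean of the gene over the 4 libraries (y axis, from 0). The x axis lists the libraries in the order that the 5 ligands share, with summer A at 0 for EGF and AREG, and HBEGF runs the other way at its summer A end.

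NRG1 encodes neuregulin 1. It had 134 reads in summer A and 272 in summer B, or 145 and 310 normalized reads. Its winter mean has 2 solutions, 22 and 240 reads (16.6 and 254 normalized) or 207 and 108 reads (156 and 114 normalized). Winter and summer overlapped in both solutions. The means were 135 in winter and 228 in summer, a log2 ratio of -0.75, the next to HBEGF in size among the members. Summer B held 2.13 times the normalized reads of summer A (exact binomial 95% interval 1.73 to 2.64, counting error only). The other neuregulins had nearly even means. The log2 ratio was 0.0078 for NRG2, -0.045 for NRG3, the one with the most reads of the other ligands listed, and -0.067 for NRG4. Markers of neurones, a known source of neuregulins, went the other way. All 5 listed neuronal markers (SNAP25, SYT1, RBFOX3, TUBB3 and SYN1) had higher winter means, with a median log2 ratio of 0.76, and RBFOX3, the marker with a single solution, had 53.6 and 37.0 normalized reads in winter and 15.2 and 33.1 in summer. Their part in the NRG1 values was not tested.

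EGFR had 140 reads in summer A and 167 in summer B, or 152 and 190 normalized reads, which differed by a ratio of 1.25 with an exact binomial interval of 0.996 to 1.58 (95%). Its winter mean has 3 solutions, 5 and 411 reads, 190 and 279 reads or 375 and 147 reads, and in each of them winter and summer overlapped. The means of EGFR were 219 in winter and 171 in summer, a log2 ratio of 0.36. ERBB4, which is known from neurones, had 237 and 405 reads in summer, or 257 and 462 normalized reads. Its winter mean has 3 solutions with 273 and 519, 413 and 380 or 552 and 240 normalized reads, and none separated the seasons. The means of ERBB4 were 396 in winter and 359 in summer, a log2 ratio of 0.14.

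ERBB2 varied more within each season than its means varied between them. It had 230 and 77 reads in winter A and B and 52 and 268 in summer A and B, or 174 and 81.4 normalized reads against 56.4 and 305. Summer B and winter A were high and winter B and summer A low, so that the seasons overlapped. Summer B held 5.42 times the normalized reads of summer A (exact binomial 95% interval 4.01 to 7.44), and winter A 2.13 times those of winter B (1.64 to 2.80). Summer B was more than 2-fold above summer A and winter A more than 2-fold above winter B in 4.19% of expressed genes with a single solution. The means of ERBB2 were 127 ± 65.1 (SD, n = 2) in winter and 181 ± 176 (SD, n = 2) in summer, a log2 ratio of -0.51 that turned to 1.18 without summer B. The summed astrocyte markers with single solutions had winter A and summer B as their higher libraries too. So did the sum of the 55 pathway genes with single solutions from the lists below. That sum was 2799 and 2262 normalized reads in winter A and B and 2269 and 2840 in summer A and B. The order is thus not particular to astrocytes, though the list of receptor adaptors and signalling genes did not share it. Of the 8 astrocyte markers listed, 4 had a lower winter mean, with a median log2 ratio of -0.26. The 4 astrocyte markers with single solutions (AQP4, SLC1A3, ALDH1L1 and SOX9) summed to 445 and 189 in winter A and B and to 153 and 392 in summer A and B. SOX9 alone, a transcription factor of astrocytes, had 111 and 32.8 against 16.3 and 95.7 normalized reads, and none of the 4 was at 0. AQP4 did not follow, with 6.79 and 3.17 normalized reads in winter A and B against 9.76 and 10.3 in summer A and B. GFAP, S100B, GJA1 and SLC1A2 had no single solution, so their order of libraries is not known. The part of astrocytes in the ERBB2 values was not tested.

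ERBB3 had a mean of 1158 in winter and 900 in summer, a log2 ratio of 0.36. Its means have 62 solutions in winter and 4 in summer, and the seasons overlapped in 244 of the 248 pairs of solutions, so the reads of each library could not be given. ERBB3 is known in brain from cells of the oligodendrocyte lineage. Of 9 oligodendrocyte markers 8 had a higher winter mean, at a median log2 ratio of 0.36, and SOX10, a transcription factor of this lineage, had 1.13. OLIG2, the one with a single solution, gave 127 reads in winter A, 101 in winter B, 83 in summer A and 60 in summer B. The part of oligodendrocytes in the ERBB3 values was not tested.

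Taking the 8 members with a single summer solution, summer B was higher than summer A in 7 and more than 2-fold higher in 5 (EGF, BTC, EREG, NRG1 and ERBB2). Over the 7643 expressed genes with a single solution, which leave out EGF, summer B was the higher library in 61.8% and more than 2-fold higher in 27.7%. Of the 5 members with a single winter solution, 1 (ERBB2) had winter libraries more than 2-fold apart. Seasons did not overlap in HBEGF, overlapped in every solution of 7 members, and depended on the solution in ERBB3.

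**Figure D3:**
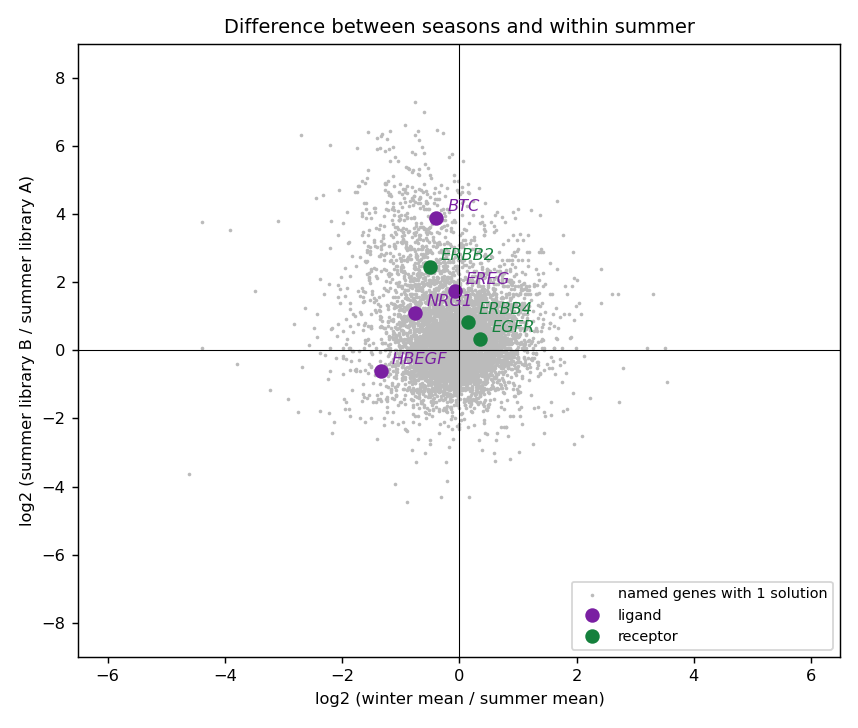
Winter mean over summer mean as a log2 ratio (x axis) against the log2 ratio of summer library B to summer library A (y axis) for 7 members with a single summer solution and reads in both summer libraries, ligands in purple and receptors in green, over the named genes with a single solution and reads in both summer libraries in grey. BTC and ERBB2 lie far up the y axis, with summer B at 14.7 and 5.42 times summer A, and HBEGF lies furthest left at -1.34.

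Genes that process the ligands or hold them at the cell surface were compared as lists. Of 17 genes for sheddases and their regulators, 14 were expressed, with a median log2 ratio of 0.090, and 5 could be tested. With edgeR's quasi-likelihood test 0 of the 5 passed an unadjusted p under 0.05, and the exact test and DESeq2 also called 0. ADAM17, the main sheddase of HBEGF precursors, had means of 577 in winter and 538 in summer, a log2 ratio of 0.10. ADAM10, a sheddase of EGF and BTC, had means of 499 in winter and 673 in summer, a log2 ratio of -0.43. TIMP3, an inhibitor of ADAM17 and the gene with the most reads of this list, had 938 in winter and 1251 in summer, a log2 ratio of -0.42. Among 12 genes for partners at the cell surface, 8 were expressed, with a median log2 ratio of 0.33, and 1 of the 4 tested passed the rule. CD9, a tetraspanin that associates with the HBEGF precursor, had means of 524 in winter and 536 in summer, a log2 ratio of -0.033.

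CD44, a hyaluronan receptor that can present heparin-binding growth factors, was the partner that passed. It had 70.9 and 58.2 normalized reads in winter A and B and 144 and 237 in summer A and B, with both summer libraries above both winter libraries. Its log2 fold change was -1.55 (SE 0.39, edgeR's quasi-likelihood test, unadjusted p = 0.00427, adjusted p = 0.982). The study named CD44 and HBEGF from these same libraries, so the call is not independent evidence. CD44 was higher in summer B than in summer A, the reverse of HBEGF.

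Signalling genes behind the receptors gave no call. Of 40 genes for adaptors and the RAS-ERK, PI3 kinase and STAT routes, 34 were expressed, at a median log2 ratio of 0.040, from -0.61 in PIK3CA to 0.92 in ARAF. None of the 9 tested passed an unadjusted p under 0.05 with edgeR's quasi-likelihood test, and the exact test and DESeq2 called 0 past the rule. GRB2, the adaptor that links ERBB receptors to RAS activation, gave 171 reads in winter A, 190 in winter B, 200 in summer A and 99 in summer B, and the seasons overlapped. PIK3R1, the regulatory subunit of PI3 kinase and the gene of this list with the most reads, had means of 1029 in winter and 1054 in summer.

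Negative regulators likewise gave no call among genes that passed the filter on low means, and SOCS3 passed the rule when that filter was left out. Of 29 genes, 25 were expressed, with a median log2 ratio of -0.022, and 0 of the 11 tested passed an unadjusted p under 0.05 with edgeR's quasi-likelihood test, or the rule with the exact test or DESeq2. ERRFI1, an inhibitor of EGFR kinase activity that ERK signalling induces, had means of 151 in winter and 80.1 in summer, a log2 ratio of 0.91, the reverse of HBEGF. LRIG1, a membrane protein that promotes turnover of ERBB receptors, had 815 in winter and 828 in summer, a log2 ratio of -0.022. NF1, which inactivates RAS and had the most reads of this list, had 1284 in winter and 1339 in summer.

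Among 20 target genes of ERK, 16 were expressed, at a median log2 ratio of 0.16, from -1.48 in ATF3 to 1.64 in EGR1. Of the 12 tested, 1 passed the rule. EGR1, an immediate early transcription factor, had 64.1 and 28.6 normalized reads in winter and 18.4 and 11.4 in summer, a log2 fold change of 1.65 (SE 0.68, edgeR's quasi-likelihood test, unadjusted p = 0.0425, adjusted p = 0.982). EGR1 did not pass the rule without winter A (log2 fold change 0.93), without winter B (2.09) or with DESeq2 (1.64). ETV5, the gene with the most reads of this list, had means of 249 in winter and 201 in summer, a log2 ratio of 0.31. Taking all 6 lists, 2 of the 42 genes tested passed the rule, CD44 higher in summer and EGR1 higher in winter, against 1.67% of the 7643 genes tested (0.824% higher in summer and 0.85% higher in winter). Those 2 were also the pathway genes with an unadjusted p under 0.05, which 1.99% of all genes tested had, and 0 passed an adjusted p of 0.05 with edgeR's quasi-likelihood test, its exact test or DESeq2. CD44 was listed with its call by the study already known, so nothing is read from the count against these shares. Among all genes past the rule 65 of 128 were higher in winter, and 122 of 168 were when scaled by total reads. Single solutions become rare as means rise, earlier for winter than for summer, so most pathway genes with high means could not be tested.

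**Figure D4:**
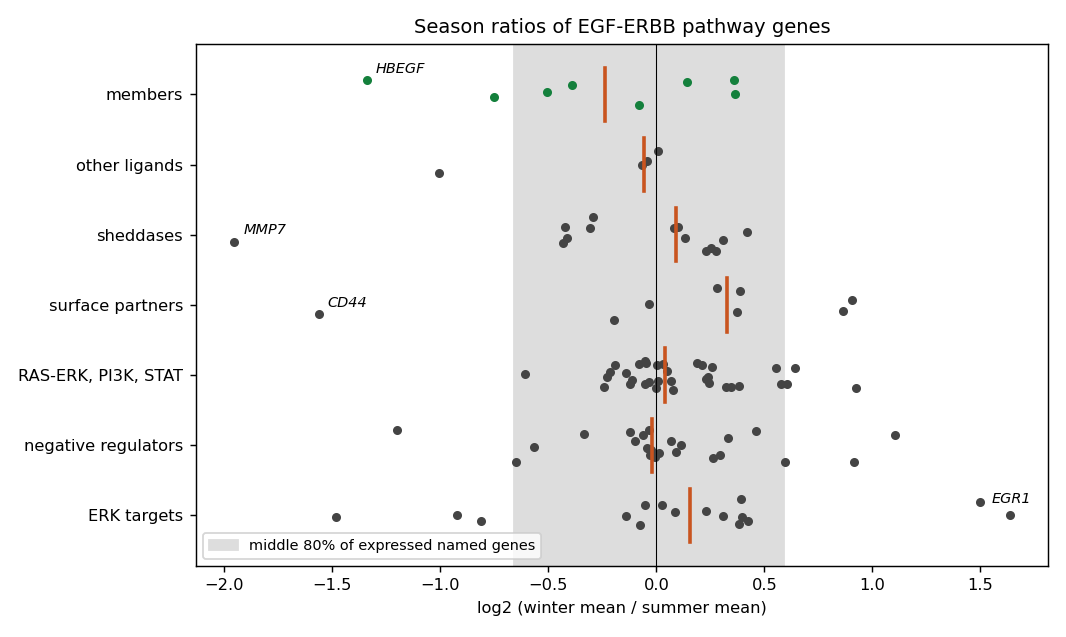
Winter mean over summer mean as a log2 ratio (x axis) for the 8 family members (green) and the genes of 6 pathway lists (grey, rows) that were expressed in a season, with list medians as orange lines and the middle 80% of all expressed named genes (-0.66 to 0.59) shaded. HBEGF at -1.34 and NRG1 at -0.75 are the members left of the shaded range. The medians of the 6 pathway lists lie between -0.056 and 0.33, and that of the members is -0.24.

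Genes with a pattern like that of HBEGF were sought among 3638 other genes with a single solution and a mean of at least 50 normalized reads over the 4 libraries. The measure was the root mean square difference of log2(normalized reads + 1) over the 4 libraries, after subtraction of the mean of each gene. Closest was TRHR, the receptor of thyrotropin-releasing hormone, with a difference of 0.148 against a median of 0.738 over all genes compared. TRHR had 37.0 and 24.3 normalized reads in winter and 102 and 72.9 in summer. The next were an entry named ZNF260|ZNF781 (0.186), PCSK1 (0.196), MYL9 (0.200) and OCA2 (0.203). PCSK1, a convertase that cleaves neuropeptide precursors, had 41.5 and 24.3 normalized reads in winter and 82.4 and 55.9 in summer. MYL9, a myosin light chain of smooth muscle, had 89.0 and 83.5 in winter and 210 and 130 in summer. OCA2, a melanosomal membrane protein, had 36.2 and 42.3 in winter and 111 and 68.4 in summer. In all 5 genes, as in HBEGF, summer A was the highest library. The 5 genes were picked for closeness to HBEGF, so their shared order and small differences follow from the choice and carry no test. CD44 stood at position 317 in this order, with a difference of 0.480. These likenesses rest on 4 libraries that the genes share.

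**Figure D5:**
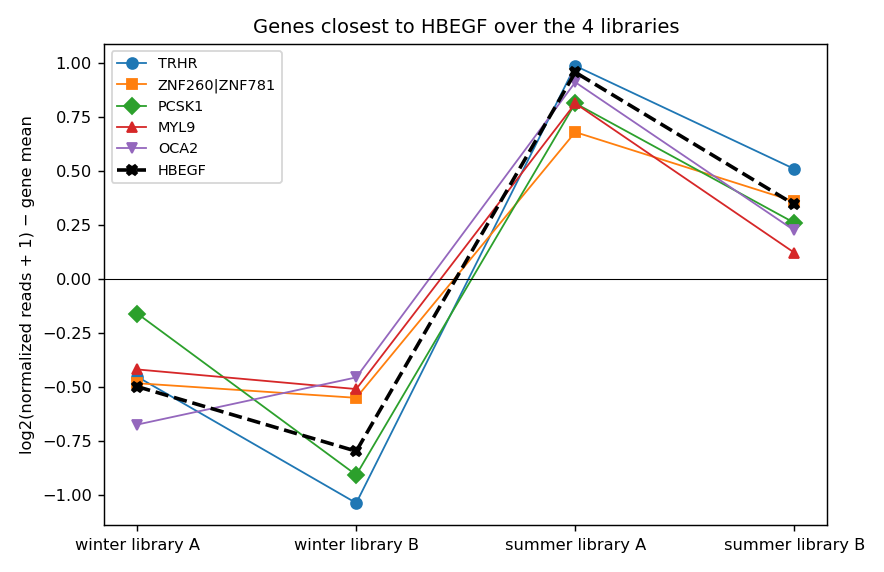
Log2(normalized reads + 1) minus the mean of the gene over the 4 libraries (y axis) for HBEGF (dashed black) and the 5 genes closest to it, by library (x axis). All 6 lie below 0 in both winter libraries and above 0 in both summer libraries, with summer A highest. This likeness follows from the way the 5 genes were picked.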

How the data were processed

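Reads were aligned by the authors with TopHat to their own dromedary assembly and counted with HTSeq (versions are not given in the sources used here). Per sample the deposited counts are raw reads per unnamed gene model, used here for depth and detection alone. HTSeq tallies of uncounted reads (72.2% to 79.3% of all tallied) stayed out. For named genes the deposited table holds a signal, the season mean of reads divided by DESeq size factors, to 6 significant digits. It also holds a fold change (a ratio, from edgeR) and a p-value of the authors' own comparison, neither of which was used. In the supraoptic nucleus 2 libraries per season were sequenced from stranded, ribosomal RNA-depleted total RNA. The study counts these as 2 camels in each season.

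The step that 1 read adds to a mean was found for each library from the low means, and each mean was solved for all pairs of whole reads within its rounding. All means were solved, 9884 genes with a single pair in both seasons. After a random shift of the low winter means, 0.0334% were solved. For the 7643 genes of these that averaged 10 or more in a season, edgeR 4.0.16 (R 4.3.3) ran its quasi-likelihood test (glmQLFit, legacy = FALSE) with the recovered size factors and Benjamini-Hochberg adjustment. The study's rule is more than 2-fold with an unadjusted p under 0.05. Family members carry no test. Alternatives were edgeR's exact test, DESeq2 1.42.0, TMM, RLE and total scaling, other filters, fold thresholds of 1.5 and 3, pseudocounts of 1 and 5, and each library left out. Library ratios have exact (Clopper-Pearson) 95% intervals (scipy 1.17.1).

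The members and lists were chosen with earlier results of these data known. Named were the members, ADAM10, ADAM17, CD9, CD44, ERRFI1, LRIG1, up to 12 pathway genes past the rule, the gene with the most normalized reads in each list and the 5 genes closest to HBEGF. Marker genes and the extremes of lists are given as examples, and AREG, EPGN, NRG2, NRG4, GRB2, MMP7, SOCS3, CBLC and V-ERBB were named after their values were seen. Scripts were tested on simulated data. Figures were drawn with matplotlib 3.10.9.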

Additional observations from a re-analysis of the deposited data

How the results depend on the processing

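The log2 ratio of HBEGF stayed below 0 with all 3 other scalings, with pseudocounts of 1 and 5 normalized reads and without any 1 of the libraries (-1.62 to -0.999), and its seasons did not overlap under any of the 3 scalings. With a library left out, the ratio ran from -1.30 to 2.58 in BTC, from -0.71 to 1.04 in EREG and from -1.26 to 1.18 in ERBB2, and was above 0 in each of the 3 genes without summer B and in EREG also without winter A (0.32). For EREG it was 0.10 with total reads, 0.019 with TMM factors and 0.031 with DESeq2 size factors, and the cause was not tested. EGF gave no ratio without summer B, where 0 reads were left. Members with several solutions were recomputed with the pseudocounts alone. Of pathway genes past the 2-fold rule, the count of 2 became 1 with DESeq2 (CD44, cause not tested) and 1 at a fold threshold of 3 (EGR1), and rose to 3 with total reads (with SDC3) and without the filter on low means (with SOCS3). With a library left out it ran from 2 to 7, with 7 without summer A and 5 without summer B, fits in which the lone summer library was assumed to vary like winter. The count past an adjusted p of 0.05 ran from 0 to 2 there, with ATF3 and CD44 past it without summer A (edgeR's quasi-likelihood test), when 264 of all genes tested were past it. No paired analysis was possible because the winter and summer libraries came from different animals, killed at El Oued and at Ouargla. The 2 libraries per season, and single solutions found mainly at low means, limit what can be tested.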

Other observations

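An entry that the deposited table names V-ERBB, a historical name of a viral relative of EGFR, gave 167 reads in winter A, 86 in winter B, 65 in summer A and 70 in summer B. In normalized reads it had 126 and 91.0 in winter against 70.5 and 79.8 in summer, and the seasons did not overlap. Both winter libraries were likewise the higher in 13.3% of expressed genes with a single solution, so nothing is read from this. Sharing of reads between this entry and EGFR was not measured, so both are uncertain to that extent. The entry was noticed after its values were seen.

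Some low genes of the pathway lists were uneven between libraries. SOCS3, a cytokine-induced inhibitor of JAK-STAT signalling, gave 9 reads in winter A, 5 in winter B and 0 in each summer library. CBLC, a ubiquitin ligase of the CBL family, gave 12 reads in winter A, 9 in winter B, 0 in summer A and 2 in summer B. Both averaged under 10 normalized reads in each season and did not pass the filter on low means. Without that filter SOCS3 passed the 2-fold rule, higher in winter, and CBLC did not. MMP7, a matrix metalloprotease, gave 5 reads in winter A, 2 in winter B, 0 in summer A and 20 in summer B, with summer B highest and summer A lowest as in EGF, BTC and EREG.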
